A study of Mus musculus with 3 samples.

Results

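The genes described are the gp130 family cytokine receptors of the mouse: Il6st, which encodes gp130 itself, Osmr, Lifr, Il6ra, Il11ra1, Cntfr and Il27ra. They were taken by gene symbol from the table of counts per gene, and all 7 were found among its 56748 genes. RNAseq was done on adult cardiomyocytes (ACMs), the contractile muscle cells of the heart, isolated from wild-type (WT) mice aged 8 to 10 weeks and kept in serum-free culture. The cells were exposed for 16 hours to vehicle (0.1% BSA), to human IL-6 at 10 ng/mL or to mouse OSM (oncostatin M) at 10 ng/mL. Pooled RNA was sequenced as 1 library for each of the 3 conditions. The number of preparations or animals in a pool is not given in the sources used here. The experiment asked which genes rise when OSM acts through its receptor and the kinase JAK1.

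Receptors of this family signal through gp130, a subunit without cytokine specificity that is shared by all of them. IL-6, IL-11 and CNTF are first bound by an alpha receptor of their own (IL6RA, IL11RA and CNTFR) that has no signalling tail, whereas OSMR and LIFR are signalling subunits that pair with gp130 and carry Janus kinases themselves. Mouse OSM signals mainly through OSMR with gp130, LIF through LIFR with gp130, and IL-27 through IL27RA with gp130. In heart muscle the family is known for STAT3 activation, hypertrophic growth and protection under stress.

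The libraries held 24939980 counts with vehicle, 26362446 with IL-6 and 30773001 with OSM. The floor of 3 counts used as the limit of detection was 0.120, 0.114 and 0.0975 CPM (counts scaled to the library total) with vehicle, IL-6 and OSM. All 8 cardiomyocyte markers had counts in each library and summed to between 26919 and 30490 CPM. They did not move together: against vehicle, Ryr2 (log2 ratio -1.53) and Ttn (-1.64) were called lower with OSM, and Tnni3 (0.68) and Myl2 (0.62) were higher beyond counting error. Tnnt2 (0.42) and Actc1 (0.14) were also higher and Pln (-0.08) and Myh6 (-0.04) lower beyond counting error, none of them called. This ratio moved with gene length (below), and the part of length in these values was not tested. Fibroblast markers summed to 5.46 to 6.37 CPM, endothelial markers to 35.0 to 36.9 CPM, smooth muscle and pericyte markers to 31.2 to 34.5 CPM, and T cell markers had 4 counts in each library. For macrophage markers the sum was 23.7, 24.0 and 54.4 CPM in the vehicle, IL-6 and OSM libraries. Cd68, with 382, 448 and 1419 counts, made up most of that sum and was called higher with OSM by the rule given below. Of the other 6 macrophage markers, Csf1r had 187, 166 and 209 counts, Lyz2 13, 4 and 31 (called higher with OSM than with IL-6), Mrc1 2, 14 and 8, and Adgre1 8, 0 and 6, while C1qa and the general leukocyte marker Ptprc were at 0 in all 3 libraries. In such bulk RNA, fewer cells of a type and less RNA per cell cannot be told apart.

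In ACMs kept in vehicle, gp130 was by far the most abundant transcript of the family. By the authors' gene length, Osmr stood above 51.8% of the protein-coding genes with counts, a place that depends on the length used (below). Levels between genes are given per gene length, as the authors' FPKM (fragments scaled to gene length and library size), each with the 95% interval of its count. These intervals cover counting error only, since no replicates exist. Il6st stood at 61.8 FPKM (60.9 to 62.7) with vehicle, above 95.5% of the 13733 protein-coding genes with counts. Il11ra1 followed at 11.1 FPKM (10.5 to 11.7), then Osmr at 3.34 FPKM (3.14 to 3.55) and Lifr at 3.17 FPKM (2.96 to 3.39). Cntfr (0.199 FPKM, 14 counts) and Il6ra (0.110 FPKM, 24 counts) lay far lower. Il27ra had 0 counts, and its 95% interval reached 0.0417 FPKM.

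The order of most neighbours was clear of counting error, but not of all. Il6st exceeded Il11ra1 by 5.58-fold (5.26 to 5.91) with vehicle. Il11ra1 exceeded Osmr by 3.32-fold (3.05 to 3.61). Osmr and Lifr did not differ beyond counting error (ratio 1.05, 0.961 to 1.15). Lifr exceeded Cntfr by 15.9-fold (9.44 to 29.3), and Cntfr and Il6ra could not be ordered (ratio 1.81, 0.867 to 3.65). The place of Osmr depends on the length used. The authors' table gives Osmr 12113 bases, whereas its longest annotated GENCODE transcript has 5496. Per longest transcript Osmr stood at 7.36 and Lifr at 3.43 with vehicle, on the scale of FPKM. The same lengths put Osmr at 17.8 and Il11ra1 at 13.7 with OSM, which reverses their order there.

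**Figure D1:**
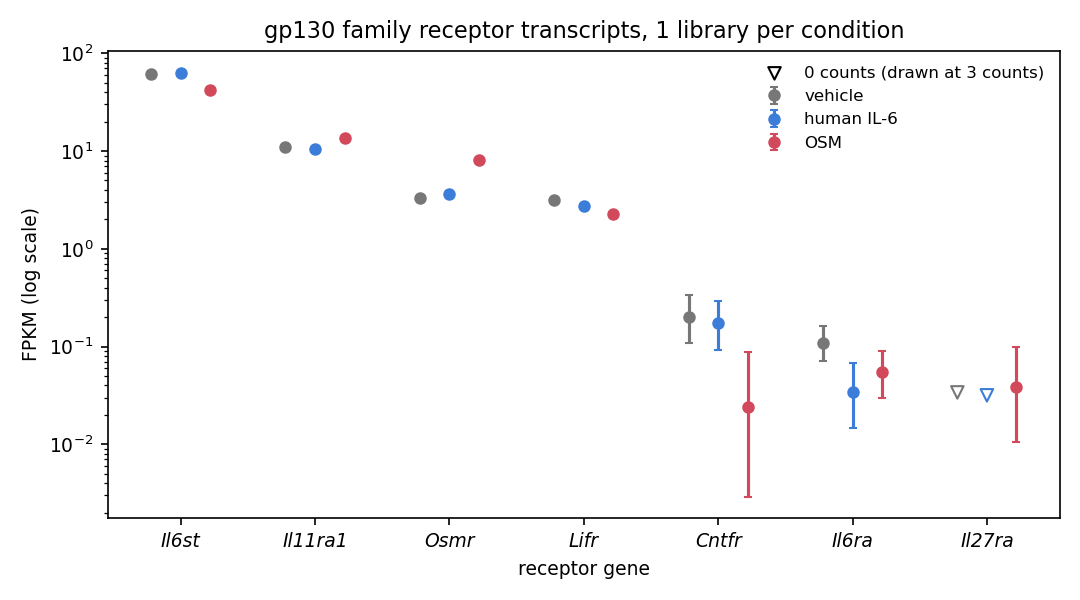
Level of each receptor gene (x) in FPKM on a log axis (y), with grey points for vehicle, blue for IL-6 and red for OSM, bars for the 95% counting interval of each value (smaller than the points for the 4 abundant genes), and open triangles at the floor of 3 counts for libraries with 0 counts. Il6st lies highest in every library, from 41.8 to 63.5 FPKM, and the OSM point of Osmr (8.10 FPKM) stands above its vehicle and IL-6 points.

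The receptor subunit that OSM itself uses was higher in the OSM library, and the shared subunit was lower. Osmr had 1023 counts with vehicle, 1199 with IL-6 and 2929 with OSM. In FPKM these were 3.34, 3.65 (3.45 to 3.87) and 8.10 (7.81 to 8.39), and the interval of the OSM library met neither of the others. Between libraries, counts were scaled by TMM, and genes with at least 10 counts over a pair were compared. A gene was called higher or lower where the whole 95% interval of its log2 ratio lay beyond 2-fold, which compares the libraries and not the conditions. Osmr was called higher with OSM than with vehicle, by 1.28 on the log2 scale (1.17 to 1.38), or 2.42-fold. It was the 1 member called of the 6 compared. Over all 15537 genes compared, 3.74% were called higher and 5.43% lower.

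Against the IL-6 library, the log2 ratio of Osmr with OSM was 1.15 (1.05 to 1.25), or 2.21-fold, which was again called. Here 4.24% of 15544 genes were called higher and 5.42% lower. This call was lost when library totals replaced TMM (log2 ratio 1.07, 0.97 to 1.16). When edgeR's exact test was run with a biological coefficient of variation (BCV) set to 0.2, Osmr was still called against vehicle but not against IL-6, and with 0.4 it was called in neither. The OSM library enters both comparisons, so they are not independent. The summed macrophage markers were also highest in the OSM library, and most of that sum was Cd68. Csf1r had 187, 166 and 209 counts with vehicle, IL-6 and OSM, and Ptprc and C1qa had 0 in each library. The part of these markers in the Osmr result was not tested.

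Osmr lies on chromosome 15 of GRCm39, from 6843058 to 6904450 on the minus strand, with 18 exons in its canonical transcript. Lifr lies beside it on the plus strand, from 7120095 to 7226970, with 216 kb and no protein-coding gene between them. Lifr had its lowest count in the OSM library, where Osmr had its highest. Sequence at the Osmr start is shown because Osmr was the member that was called, and STAT proteins, the transcription factors downstream of gp130, bind elements made of a TTCC and a GGAA arm. The 250 bases before the RefSeq start of Osmr, from the RefSeq promoter table of GRCm38.p6 and found once by exact match on GRCm39 at chr15:6903795-6904044 (minus strand), are printed 5′ to 3′ with each TTCC or GGAA in capitals. The RefSeq start lies 656 bases downstream of the GENCODE canonical start, so this stretch is inside the gene span given above.
Osmr: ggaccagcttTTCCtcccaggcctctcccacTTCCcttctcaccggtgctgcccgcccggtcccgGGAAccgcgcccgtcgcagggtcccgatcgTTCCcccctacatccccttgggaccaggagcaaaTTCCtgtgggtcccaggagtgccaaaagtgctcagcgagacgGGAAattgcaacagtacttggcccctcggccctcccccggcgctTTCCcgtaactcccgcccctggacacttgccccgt
This stretch is 66.0% G and C and holds 7 such arms, a number reached in the 250 bases before the start by 3.82% of the 32851 RefSeq promoters. The Il6st entry also holds 7 and the Il11ra1 entries 6 and 9, that of Il6ra holds 3, those of Cntfr from 0 to 5, and neither of the Lifr entries holds any. The entry of Socs3, a well-known STAT3 target, holds 3. The number of arms therefore did not set Osmr apart from members that were not called.

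The full element TTCNNNGAA, searched on both strands, was in 8.30% of the RefSeq promoters and in none of those listed for the members, of which Il27ra was not matched. In a wider window, 1000 bases to each side of the GENCODE canonical start, 45.2% of 21757 protein-coding genes held it. Within that window it was found once each for Osmr, Il6ra and Il11ra1 and not for Il6st, Lifr, Cntfr or Il27ra. The sites are shown with 10 bases to each side, the element in capitals, read 5′ to 3′ on the strand of the gene in GRCm39, with those of Socs3 for comparison. Distances are counted from the GENCODE start, not the RefSeq start used above.
Osmr, 344 bases before the start, chr15:6904776-6904804, minus strand: taaaagatccTTCCCTGAAttgtcattag
Il6ra, 666 bases before the start, chr3:89821151-89821179, minus strand: tcgacagtgtTTCCAGGAAtctttatcat
Il11ra1, 15 bases after the start, chr4:41760149-41760177, plus strand: caggggcaccTTCATCGAAtacagtcagc
Socs3, 223 bases before the start, chr11:117860328-117860356, minus strand: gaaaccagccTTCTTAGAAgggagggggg
Socs3, 50 bases after the start, chr11:117860055-117860083, minus strand: ggccgggcagTTCCAGGAAtcggggggcg
A match is a string of letters and no evidence of binding. Osmr and Socs3, which were called higher with OSM, held the element in this window, and so did Il6ra and Il11ra1, which were not called.

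The shared subunit Il6st was lower in the OSM library than in the others. Its counts were 17343 with vehicle, 19092 with IL-6 and 13870 with OSM, or 61.8, 63.5 (62.6 to 64.4) and 41.8 FPKM (41.1 to 42.5). The OSM value lay below both other intervals. The log2 ratio of OSM to vehicle was -0.56 (-0.60 to -0.53), that is 1.48-fold lower, beyond counting error but not beyond 2-fold. Against IL-6 it was -0.60 (-0.63 to -0.57), where 33.2% of all genes were higher and 33.2% lower beyond counting error. Against vehicle 33.4% of all genes were higher and 33.1% lower beyond counting error, so that such a difference by itself sets no gene apart. The gene spans 112600604 to 112646620 on the plus strand of chromosome 13.

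Lifr, the signalling subunit for LIF, had 864 counts with vehicle, 805 with IL-6 and 729 with OSM. In FPKM it stood at 3.17, 2.76 (2.57 to 2.95) and 2.27 (2.10 to 2.44), so the vehicle library was highest. Its log2 ratio of OSM to vehicle was -0.49 (-0.63 to -0.34), which is close to that of Il6st and in the direction opposite to Osmr.

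Of the alpha receptors, only Il11ra1 was well measured. Il11ra1, which binds IL-11, had 1253, 1259 and 1814 counts with vehicle, IL-6 and OSM, or 11.1, 10.4 and 13.6 FPKM (13.0 to 14.2). The OSM library was highest, by 0.29 on the log2 scale against vehicle (0.19 to 0.40), beyond counting error and well within 2-fold. Its value is uncertain in a further way. Of its canonical transcript, 80.1% is repeated at 97% identity or more in each of the near copies Il11ra2 (1, 2 and 2 counts) and Il11ra3 (0 counts in each library, under the name Gm13305), and whether reads with several matches were counted is not given in the sources used here. The span that the authors' table gives for it on chromosome 4, 41699989 to 41769474, also holds other genes in part or whole. Among them, Dctn3 (log2 ratio 0.46), Galt (0.57), Rpp25l (0.57) and Ccl27a (0.75) were higher with OSM beyond counting error. Their part in the Il11ra1 value was not tested.

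The receptor that binds IL-6 itself was near the floor. Il6ra, on chromosome 3 from 89771366 to 89820503, had 24 counts with vehicle, 8 with IL-6 and 14 with OSM. Against vehicle, its log2 ratio was -1.68 (-3.05 to -0.48) with IL-6 and -1.02 (-2.08 to -0.01) with OSM. Both cytokine libraries were below vehicle beyond counting error, though with OSM not once the length trend given below was removed, and the cytokine libraries could not be told apart (0.67, -0.69 to 2.13). In FPKM it was 0.110, 0.0342 and 0.0542, where the floor was between 0.0116 and 0.0137.

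Cntfr, which binds CNTF and lies 2.90 kb from the annotated span of Il11ra1, had 14, 13 and 2 counts. Its log2 ratio of OSM to vehicle was -3.05 (-6.23 to -0.93), an interval so wide that the gene was lower beyond counting error without being called. Il27ra, the IL-27 receptor, had 0, 0 and 4 counts and was not compared. Its span on chromosome 8, 84756923 to 84769218, overlaps Palm3 by 2 bases, and Palm3 had 0, 4 and 16 counts.

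With IL-6, none of the 6 members compared was called, where 1.77% of 15472 genes were called higher and 1.74% lower. The log2 ratios to vehicle were 0.04 (0.01 to 0.07) for Il6st, 0.13 (0.01 to 0.25) for Osmr, -0.20 (-0.34 to -0.06) for Lifr, -0.09 (-0.21 to 0.02) for Il11ra1 and -0.21 (-1.41 to 0.99) for Cntfr. Beyond counting error, 19.6% of genes were higher and 19.1% lower in this comparison. The IL-6 used was human and the cells were mouse, and whether human IL-6 acted through these receptors was not measured here.

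**Figure D2:**
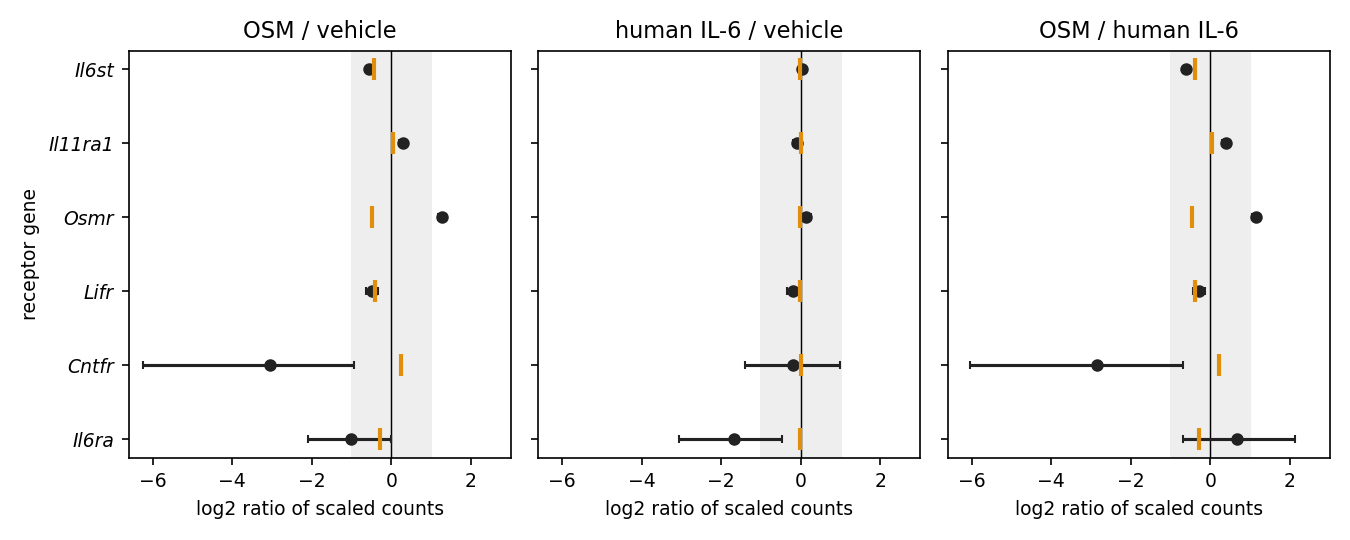
Log2 ratio of TMM-scaled counts (x) for each compared receptor gene (y), with its 95% counting interval as a bar, in a panel each for OSM against vehicle, IL-6 against vehicle and OSM against IL-6. Shading marks the range within 2-fold, and orange ticks the median of protein-coding genes of like length with at least 100 counts on average. The Osmr intervals with OSM (1.17 to 1.38 against vehicle, 1.05 to 1.25 against IL-6) lie wholly outside the shading.

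Ratios of members within a library need no scaling between libraries, and the gene length that divides each level cancels in their change between libraries, though a shift that itself varies with gene length (below) does not. Set against gp130, the receptor for OSM was higher in the OSM library, Il11ra1 was higher to a lesser extent, and Lifr did not differ from vehicle beyond counting error. Osmr was 5.40% of the Il6st level with vehicle (5.07 to 5.76), 5.75% with IL-6 (5.42 to 6.10) and 19.3% with OSM (18.6 to 20.1). Per longest transcript these shares were 9.53%, 10.1% and 34.1%, so their size depends on the length used. The ratio of Osmr to Il6st was 3.58-fold higher with OSM than with vehicle (3.32 to 3.86), and 3.75-fold (3.48 to 4.04) with the length trend removed. That trend was fitted on the authors' lengths. By longest transcript, genes of like length had a median log2 ratio of -0.11 for Osmr and -0.48 for Il6st. The rise with the trend removed therefore depends on the length used. With IL-6 the ratio of Osmr to Il6st was 1.06-fold that of vehicle (0.977 to 1.16), not beyond counting error.

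Lifr was 5.13% of Il6st with vehicle, 4.34% with IL-6 and 5.41% with OSM, and the change from vehicle to OSM was 1.06-fold (0.954 to 1.17). With IL-6 the ratio of Lifr to Il6st was 0.846 times that of vehicle (0.767 to 0.934). Il11ra1 was 17.9%, 16.4% and 32.5% of Il6st, a 1.81-fold change (1.68 to 1.95) from vehicle to OSM, which was 1.28-fold (1.19 to 1.38) with the trend on gene length described below removed. Between the signalling subunits that pair with gp130, Osmr was 1.05 times Lifr with vehicle, 1.33 times with IL-6 (1.21 to 1.45) and 3.57 times with OSM (3.29 to 3.88). As a share of the summed FPKM of the family, Osmr was 4.19%, 4.54% and 12.3%, while Il6st was 77.5%, 78.9% and 63.5%.

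**Figure D3:**
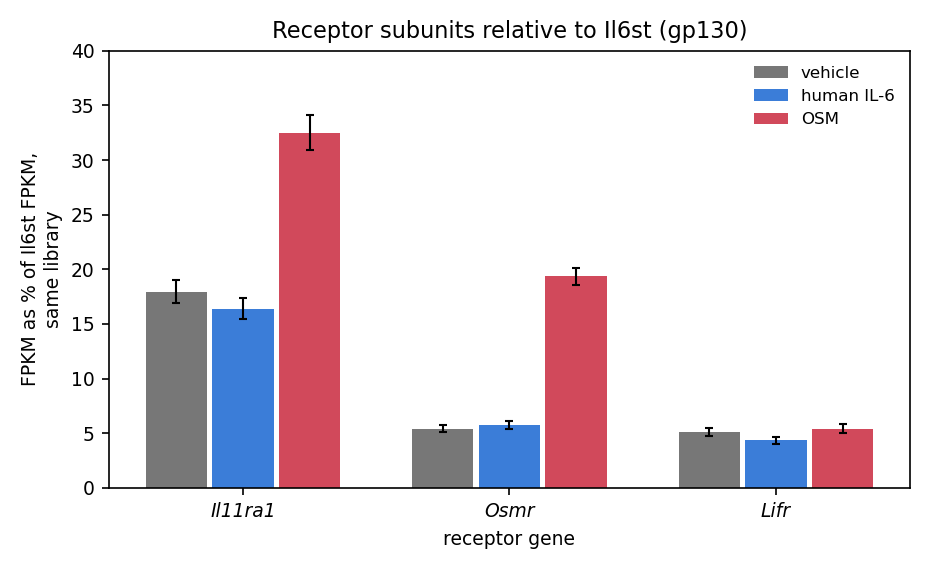
FPKM of Il11ra1, Osmr and Lifr as a percentage of the Il6st FPKM of the same library (y, from 0), with grey bars for vehicle, blue for IL-6 and red for OSM and 95% counting intervals as error bars. Osmr stands at 5.40% with vehicle, 5.75% with IL-6 and 19.3% with OSM, whereas Lifr stays between 4.34% and 5.41%.

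Gene length moved with the ratio of OSM to vehicle. Over protein-coding genes split into eighths by length, the median log2 ratio ran from 0.47 in the shortest to -0.56 in the longest. Il6st and Lifr are long genes. Of the genes that were split, those within 1.25 times their length had medians of -0.42 (1068 genes) and -0.41 (1146 genes), against their own -0.56 and -0.49. Genes of like length to Osmr had a median of -0.48 (865 genes), and Osmr stood above 99.1% of them. With the longest transcript in place of the authors' length, the median was -0.11 (3332 genes) and Osmr stood above 98.4% of them.

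With the length trend removed, the log2 ratio of Osmr was 1.82 (1.72 to 1.92) and that of Il6st -0.09 (-0.12 to -0.06). That of Lifr was -0.03 (-0.18 to 0.11) and that of Il6ra -0.71 (-1.77 to 0.30), both no longer beyond counting error. The trend was fitted on the authors' lengths, and the Osmr value without it depends on that choice. What the length trend reflects was not tested.

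**Figure D4:**
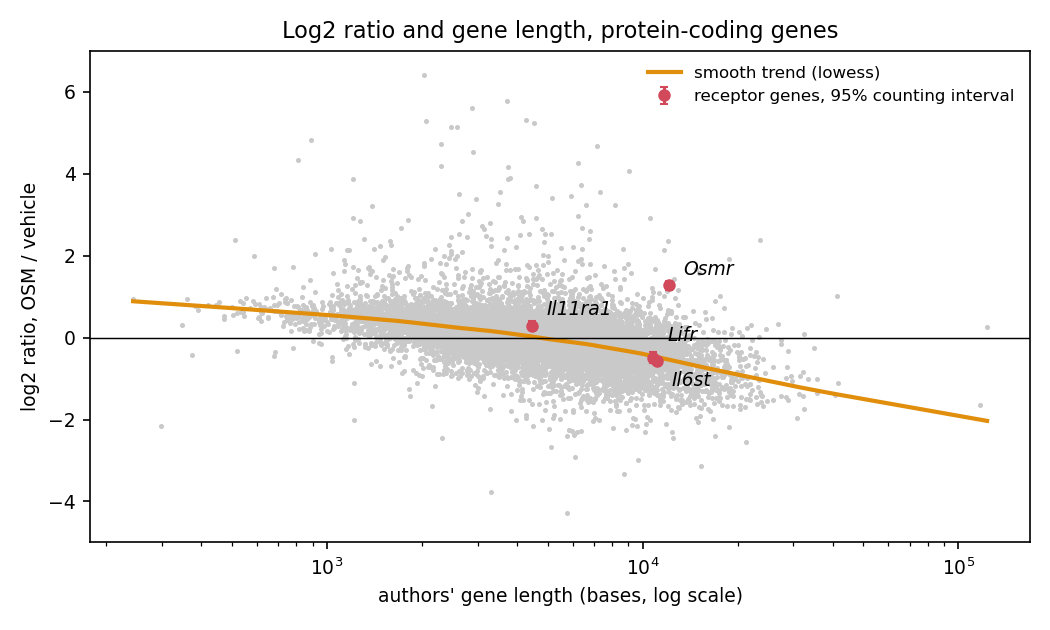
Log2 ratio of OSM to vehicle (y) against the authors' gene length in bases (x, log axis), with a grey point for each protein-coding gene, a smooth trend (lowess) as an orange line, and the members with at least 100 counts on average in red with 95% counting intervals. The line falls with length, Il6st and Lifr lie near it at -0.56 and -0.49, and Osmr lies above it at 1.28.

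The other genes of the pathway were taken as 6 lists by role, 53 genes in all, of which 39 had enough counts to compare OSM with vehicle. Of these, 3 were called higher (Il6, Cish and Socs3) and 2 lower (Gab1 and Sos1), against 3.74% and 5.43% of all genes. Their median log2 ratio was -0.02, and that of all genes compared 0.00. All lists were chosen with earlier results of these data known.

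Most ligands of the family were at or near 0, and 1 of the 5 compared was called. Il6 had 4 counts with vehicle, 0 with IL-6 and 42 with OSM. Its log2 ratio of OSM to vehicle was 3.15 (1.69 to 5.09). For OSM against IL-6, the lower end of its log2 interval was 3.30. In that pair it passed the filter of 10 counts through the OSM library alone. It was 12.7-fold higher there with the floor of 3 counts in place of 0. Osm, Il27 and Ebi3 had 0 counts in all 3 libraries. Ctf1, which encodes cardiotrophin 1, had 107, 102 and 91 counts, Clcf1 had 52, 42 and 95, Il11 had 13, 10 and 14, and Lif 18, 13 and 10. None of these was called. Ctf2 had 0 counts with vehicle, 10 with IL-6 and 0 with OSM, which made it the 1 pathway gene called in IL-6 against vehicle. The lower end of its log2 interval was 1.06. It passed the filter of 10 counts through the IL-6 library alone. Any gene at 0 with vehicle that passed this filter would be called in this pair, so the call carries no weight. It was 3.11-fold higher with the floor of 3 counts in place of 0. The 6 related receptors of the cytokine class, Il31ra, Il11ra2, Csf3r, Lepr, Il12rb1 and Il12rb2, had at most 2 counts in any library and were not compared.

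Janus kinases and STATs held no call in OSM against vehicle, over 10 genes compared with a median of 0.13. Beyond counting error 5 were higher and 4 lower, where 33.4% of all genes were higher and 33.1% lower. Tyk2 was the lowest of the list, with 837, 913 and 521 counts (-0.93, -1.09 to -0.77). Jak1, the kinase named in the study's question, had 4978, 5009 and 4492 counts, a log2 ratio of -0.39 (-0.45 to -0.33). Stat3 had 7953, 8947 and 14412 counts, a log2 ratio of 0.62 (0.58 to 0.66), beyond counting error and within 2-fold. Stat5a (850, 674 and 1668 counts) was called higher with OSM than with IL-6 only, by 1.17 (1.04 to 1.30). Stat6 (1567, 1657 and 1649 counts) and Stat5b (1614, 1717 and 1652 counts) had log2 ratios of -0.17 and -0.21.

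Feedback inhibitors held 2 of the 3 calls on the higher side. Socs3, which binds gp130 and blocks its kinases, had 670 counts with vehicle, 646 with IL-6 and 18194 with OSM. Only the OSM library was high, by 4.52 on the log2 scale (4.41 to 4.63). Cish, a SOCS family member, had 151, 215 and 617 counts, a log2 ratio of 1.79 (1.53 to 2.06). Socs1 had 4, 3 and 25 counts, a log2 ratio of 2.40 (0.87 to 4.39), which was not called against vehicle but was against IL-6 (2.92, 1.20 to 5.29). The 14 inhibitors compared had a median of 0.49, with 8 higher and 3 lower beyond counting error, where 33.4% of all genes were higher and 33.1% lower. The 3 lower were Socs4 (-0.78), Socs7 (-0.77) and Socs6 (-0.16). Of the inhibitors with the highest FPKM, Ptpn2, a phosphatase that acts on Janus kinases and STATs, had 770, 757 and 1497 counts (0.72, 0.59 to 0.84). Pias2 had a log2 ratio of -0.11 (-0.26 to 0.04) and Pias4 of 0.46 (0.32 to 0.61).

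The adaptors that lead from gp130 to the ERK pathway held both calls on the lower side. Gab1 had 1225, 1372 and 646 counts and Sos1 1302, 1349 and 688, both with a log2 ratio of -1.16. Neither was called with the length trend removed. Ptpn11, which encodes SHP2, had 11427, 11431 and 8782 counts (-0.62). Grb2 had 3028, 3301 and 5513 (0.62) and Shc1 1879, 2196 and 2645 (0.25). The members of this list therefore lay on both sides of 0. Among the genes for shedding and turnover of receptors, the proteases Adam10 (1234, 1287 and 1613 counts) and Adam17 (1377, 1537 and 1517 counts) were not called. Erap1 (921, 923 and 798 counts, -0.45) and Cbl (496, 447 and 313 counts, -0.91) were not called either.

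**Figure D5:**
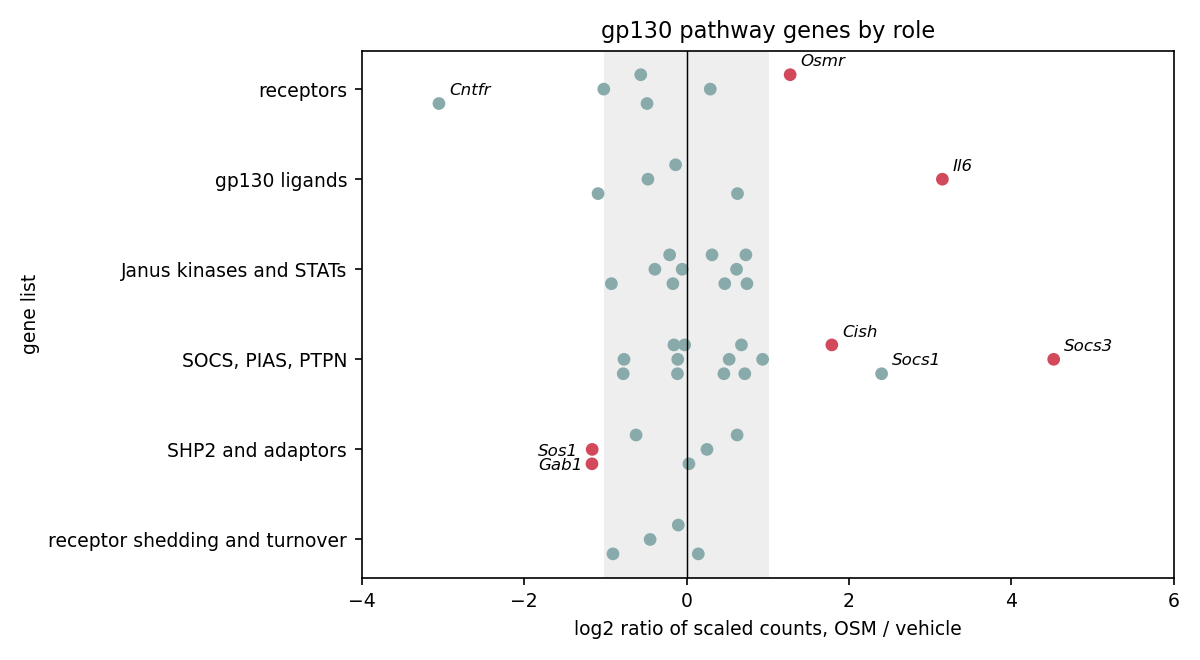
Log2 ratio of OSM to vehicle for each compared gene of the receptors and of the pathway lists by role (rows), with called genes in red and the range within 2-fold shaded. Socs3 (4.52), Il6 (3.15), Cish (1.79) and Osmr (1.28) are called higher, and Gab1 and Sos1 (both -1.16) lower.

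The genes whose values were most like those of Osmr over the 3 libraries were found by the distance between their log2 ratios to vehicle, among 9000 protein-coding genes with at least 100 counts in each library. The nearest were Slc29a2, a nucleoside transporter, with 181, 210 and 507 counts (distance 0.03), Efna5, an ephrin, with 325, 372 and 926 (0.03), and Scarb1, a lipoprotein receptor, with 415, 493 and 1163 (0.04). Ndufb2, of respiratory complex I, had 165, 194 and 459 counts (0.04), and Psme2b 338, 394 and 935 (0.05). In all, 47 genes lay within 0.2 of Osmr on this measure. The likeness rests on 3 libraries and is a description.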

How the data were processed

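RNA was pooled and sequenced as poly(A) libraries on a NovaSeq, with 1 library per condition. Per the submitters' processing notes, the tools were fastp, HISAT2 2.2.1, featureCounts 2.0.6 and edgeR 4.0.16, on mm39 (GRCm39). The study's methods name another featureCounts version, and the strand setting is not given in the sources used here. The authors deposited whole-number counts per gene, without normalization. The FPKM values that the authors deposited are each count divided by the gene length of their table and by 1 constant per library. All sample columns were matched (0 left over).

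TMM factors were computed from the counts with edgeR 4.0.16 for every pair of libraries. Genes with 10 or more counts in a pair were compared by the log2 ratio with its 95% Clopper-Pearson interval, and called when the whole interval lay beyond 2-fold. Intervals of changes in within-library ratios are normal on the log scale for the 4 abundant members. Without replicates no P-value is given. A fold against 0 counts uses a floor of 3 counts in place of 0 and is not a lower bound. This compares libraries, and intervals cover counting error only. The rule for calls was also run on simulated data. No outcome of that run is given here, so it lends the calls no weight. The members and lists were chosen with earlier results of these data known. Besides the members, every called gene of a pathway list and up to 4 with the highest FPKM with vehicle were named, and the 5 genes most like Osmr. Tyk2, Socs4, Socs6 and Socs7 were named as well, for their lower values with OSM, as were the ligands without counts and all related receptors. The medians and shares by longest transcript length, and the within-library ratios without the length trend, were added after seeing the data. Sequences were read from GRCm39, GENCODE M39 and the RefSeq promoter table, in which 6 of the 7 members were matched, and near copies were found with BLAST 2.17.0.

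Alternatives were DESeq2 1.42.0 size factors, library totals, TMM from protein-coding genes, no filter, at least 100 counts, calls from the point estimate, edgeR's exact test with an assumed BCV of 0.2 or 0.4, removal of the length trend, a prior count of 0.5, the FPKM ratio, and levels per longest transcript.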

Additional observations from a re-analysis of the deposited data

How the results depend on the processing

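No paired analysis was possible because each condition is 1 library, and no library could be left out. Osmr, the 1 member called, kept its direction in every alternative that gave a log2 ratio. Other called genes were not followed in this way. With at least 100 counts, all genes called higher and lower were 323 and 430 for OSM against vehicle, 12 and 7 for IL-6 against vehicle, and 325 and 406 for OSM against IL-6. From the point estimate they were 1565 and 2034, 1033 and 1025, and 1557 and 1981. With a BCV of 0.4 they were 43 and 11, 1 and 0, and 57 and 20, and with 0.2 the counts for IL-6 against vehicle were 112 and 125. Point estimates counted 2 members lower with OSM than vehicle, 1 lower with IL-6 than vehicle and 1 lower with OSM than IL-6. Removal of the length trend gave 1 lower with OSM than vehicle, Cntfr with 2 counts. Library totals and a BCV of 0.2 or 0.4 left 0 members higher with OSM than IL-6, and a BCV of 0.4 left 0 higher with OSM than vehicle. The log2 ratio of Osmr ran from 1.21 to 1.28 against vehicle and from 1.07 to 1.15 against IL-6 over the scalings and filters. It was 1.82 and 1.67 with the trend on the authors' gene length removed. The log2 ratio of Lifr for OSM against IL-6, uncalled, went from -0.28 to 0.15 with that trend removed. For the pathway lists in OSM against vehicle, a BCV of 0.4 left 1 higher, and 0 were lower with a BCV of 0.2 or 0.4 or with the length trend removed. In IL-6 against vehicle 0 were higher with at least 100 counts and with either BCV, and 2 by point estimate. In OSM against IL-6, 3 were higher with at least 100 counts and 2 with a BCV of 0.4, and 1, 4 and 0 were lower with at least 100 counts, by point estimate and with a BCV of 0.4. Per longest transcript the levels with vehicle were 77.2 for Il6st, 3.43 for Lifr and 7.36 for Osmr. The cause of these shifts was not tested. Counts of Il6ra, Cntfr and Il27ra were too few to measure changes near 2-fold.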
